A study of Homo sapiens with 4 samples.

Results

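The 2 arrays described here hold the RNA of RUES2 cells that carried a control short hairpin RNA (shRNA) and had reached day 5 of differentiation towards heart. RUES2 is an established line of human embryonic stem cells. A lentivirus delivered the hairpin to the cells while they were undifferentiated, puromycin selected the cells that had taken it up, and cardiac differentiation followed. The labels name the control hairpin by that word alone and place day 5 at the cardiovascular progenitor stage, so the cells are not untransduced ones. The 2 arrays were chosen by that label from the 4 of the series and are called control 1 and control 2. The other 2 arrays, with hairpins against TMEM88, are compared with nothing here. The titles of the controls carry different codes that are not explained, and nothing in the labels says whether they came from separate cultures. Technical and biological spread between them therefore cannot be told apart.

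Day 5 lies between gastrulation-like mesoderm and beating heart muscle. In this interval cells of the lateral mesoderm leave the primitive streak programme, switch on cardiac transcription factors such as ISL1, HAND1, NKX2-5 and GATA4, and have yet to assemble sarcomeres. WNT, BMP, FGF, Notch and retinoic acid signals are known to set which of heart muscle, smooth muscle, endothelium or neighbouring tissues such cells form.

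Each array carried 47322 probes, each with a fluorescence signal in the scanner's linear units and a detection p-value. A probe counted as detected where that p was under 0.01. Control 1 had 15618 detected probes and control 2 had 15300, and 14100 probes (29.8% of all) were detected on both. They measured 9221 of 20046 named genes, or 46.0%, which is the share against which the gene lists below are read. Each gene stands by 1 probe, the brightest of those detected on both arrays. Values are given as the scanner signal on control 1 and then on control 2. Each is a single array with no error of its own, and with only 2 arrays their agreement is the sole guide to precision. The median signal of the measured genes was 383.4 on control 1 and 365.8 on control 2. The dimmest detected probe stood at 149.6 and 151.4, so signals near 150 lie at the edge of detection.

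The day 5 label was set against 50 marker genes of 9 cell types, of which 49 had a named probe and 24 were measured on both arrays. Of the 12 progenitor markers, 9 were measured on both arrays. ISL1, a LIM homeodomain factor of cardiac progenitors, had signals of 3411 and 4309, within the brightest 5.23% and 3.73% of measured genes. HAND1, a basic helix-loop-helix factor of early lateral and extraembryonic mesoderm, had 1666 and 4866, and so was bright on both arrays but not equally so. PDGFRA, the receptor used to recognise cardiac mesoderm, gave 2548 and 2524, which are nearly the same. HAND2 followed with 647.3 and 669.7, also level between the arrays. These arrays hold the RNA of all cells together, so few cells with much RNA of a gene cannot be told apart from many cells with little.

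Several other progenitor factors had low signals. GATA4, a zinc finger partner of NKX2-5, had 231.3 and 157.8. NKX2-5, a homeobox factor of the heart field, had 210.5 and 154.6, and ranked 7308 and 9110 among the 9221 measured genes. GATA6 stood at 215.2 and 233.2 and MEF2C, a MADS box factor of muscle, at 226.8 and 242.6. SMARCD3, the BAF60C subunit of the chromatin remodeller used in heart formation, had 343.5 and 269.5. TBX5 and TBX20, T-box factors of the forming heart, were detected on neither array. KDR, a VEGF receptor of early mesoderm, was not detected on control 1 (139.5) and was detected on control 2 (284.9).

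The programmes before and after this stage were partly present. Of 5 nascent mesoderm markers, TBXT, MIXL1 and TBX6 were detected on neither array. EOMES had signals of 265.2 and 526.9, and MESP1, a factor at the entry to cardiac mesoderm, 322.5 and 200.0. Among stem cell markers NANOG was not detected on either array, and SOX2 passed on control 2 alone (148.0 and 161.9). POU5F1, the OCT4 gene, was measured on both arrays with 220.6 and 575.5. LIN28A, an RNA-binding protein that blocks let-7 maturation, was among the brightest 2% of genes on both arrays (7362 and 7592). DPPA4 had 1567 and 1521 and ZFP42, also called REX1, 920.2 and 1559.

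Of 5 cardiomyocyte markers with a probe, MYL7, the atrial myosin light chain that appears early, had 2723 and 1812. MYH6, an atrial myosin heavy chain, had 326.6 and 301.8. MYH7, ACTN2 and TTN were detected on neither array. Cell types of other origins showed scattered members. PECAM1 and CDH5, junction proteins of endothelium, were undetected, while TEK (272.5 and 219.2) and VWF (905.1 and 557.4) were measured. HBE1, the embryonic epsilon globin, had 1230 and 1031, with HBZ, GATA1 and PTPRC undetected. SOX17 (165.8 and 205.5) and FOXA2 (1042 and 486.0) were measured among 5 endoderm markers, and CER1, AFP and TTR were not detected on either array. No neural ectoderm marker was detected on both: PAX6, SOX1 and ZIC1 passed on neither array, and OTX2 on control 1 alone (207.8 and 145.3). TFAP2C (223.3 and 536.0) and GATA3 (246.5 and 289.2) were measured among 4 markers of trophoblast and amnion, with CGA on control 2 alone and KRT7 on neither.

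**Figure D1:**
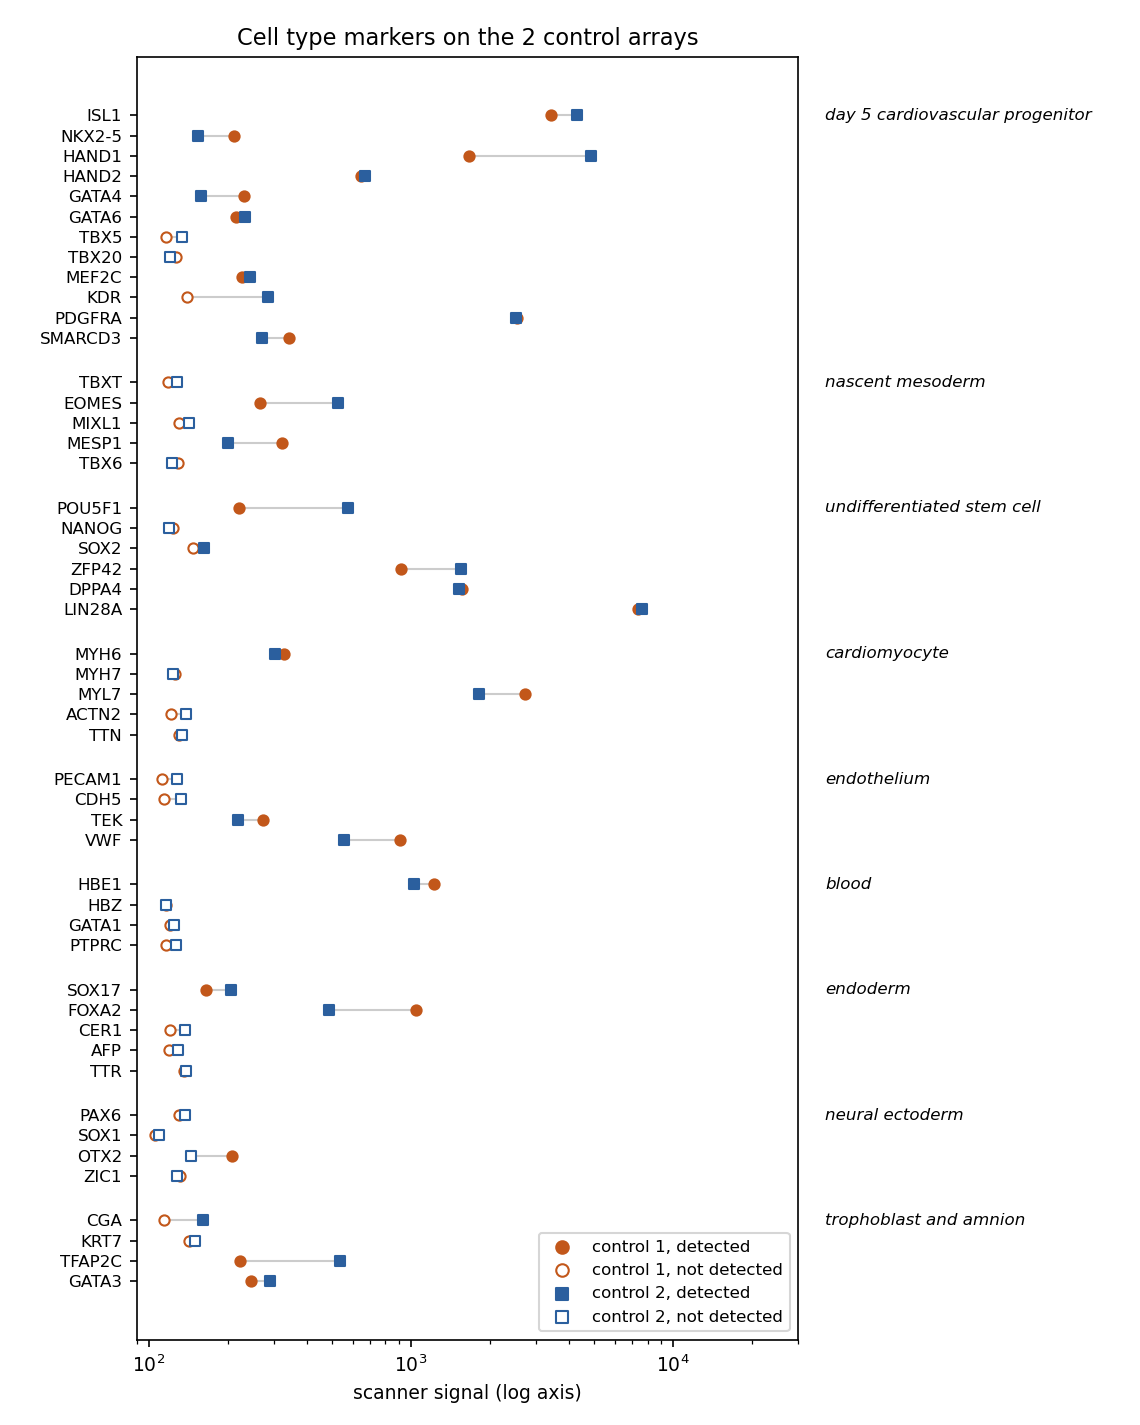
Scanner signal (log axis) of each cell type marker with a named probe on control 1 (circles) and control 2 (squares), with open symbols where the detection p was 0.01 or more. ISL1, HAND1, PDGFRA, LIN28A, DPPA4, MYL7 and HBE1 stand above 1000 on both arrays. Most markers of endothelium, blood, endoderm and neural ectoderm lie near the edge of detection or below it. The progenitor markers NKX2-5, GATA4, GATA6 and MEF2C also have low signals, TBX5 and TBX20 are undetected, and KDR is detected on control 2 alone.

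Ribosomal protein genes were frequent among the brightest signals. EEF1A1, the translation elongation factor, was the brightest gene on both arrays (29009 and 28247). Among the 20 brightest genes, 12 bore ribosomal protein symbols, led by RPS12 (25930 and 26780) and RPL41 (25050 and 24527), and 43 of the 100 brightest did, beside 74 of all 9221 measured genes. Pseudogene names such as RPL13AP5, RPSAP9 and ANXA2P2 also appear there, and their probes may read the parent transcript, which was not tested. ACTG1, the cytoplasmic gamma actin, ranked 34 on control 1 and 2 on control 2 (21138 and 26833). TMSB4X, the actin-binding thymosin beta 4, had 21781 and 24050. The 100 brightest genes held 19.8% of the summed signal of measured genes on control 1 and 20.2% on control 2, and 92 of them were the same genes. Signals of at least 10000 on both arrays were reached by 109 genes and signals of at least 1000 by 1704.

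A rank by signal is not a rank by transcript number, since each probe binds its target with its own strength. Of the 100 brightest genes 62 had another probe, and in 13 of these no other probe was detected on both arrays. F2R, a thrombin receptor, is among the 20 brightest by 1 probe (24504 and 23752), while its other probe gave 237.4 and 145.7. LAIR1, an inhibitory receptor of immune cells, had 23508 and 21047 by 1 probe and 140.1 and 134.4 by the other. ITIH5 and CCR6 belong to the same 13. IRX3, an Iroquois homeobox factor, was the brightest transcription factor of the progenitor list (17026 and 14688, the brightest 0.640% and 0.857% of genes) and has a single probe, so no other reading of it exists here.

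Genes of basic metabolism were measured almost completely. All 32 ribosomal protein genes and all 25 respiratory chain genes with a probe were measured, as were 16 of 17 housekeeping genes, 23 of 25 glycolysis and hypoxia genes and 15 of 16 cholesterol synthesis genes. GAPDH had 13880 and 12511, ACTB 19160 and 17406, and TUBA1B, an alpha tubulin, 17373 and 14370. PGK1, which serves as a reference gene and makes ATP in glycolysis, was lower on control 1 (3406 and 5472). ENO1 (16150 and 17734), LDHA (13187 and 12394) and the glucose transporter SLC2A3 (11650 and 16474) were the brightest of the glycolysis list besides GAPDH. ATP5F1B, the ATP synthase beta subunit, had 16610 and 15395 and COX4I1, a cytochrome oxidase subunit, 11932 and 10909. Of the cell cycle genes 29 of 32 were measured, with CDC20 at 6501 and 5406, MCM7, part of the replicative helicase, at 6363 and 6620, and TOP2A, the mitotic topoisomerase, at 3516 and 1672.

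Contractile genes of the actin filament were part of the day 5 signal. TPM1, an alpha tropomyosin, had 7824 and 6068 and all 4 of its probes were detected on both arrays. TPM2 had 6059 and 5077, TAGLN, a smooth muscle actin-binding protein, 2409 and 2828, and ACTA2, smooth muscle actin, 2165 and 1323. ACTC1, cardiac actin, had 1009 and 1882, a log2 difference of -1.02 that was -0.94 without background correction. MYL4, an embryonic myosin light chain, had 2022 and 1812 and NPPB, a natriuretic peptide, 915.1 and 616.5. SMYD1, a methyltransferase of muscle chromatin, had 652.2 and 614.6. NPPA and PLN, both later heart genes, were detected on control 2 alone.

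Both epithelial and mesenchymal genes were bright. In the epithelial list 13 of 19 genes were measured, among them KRT19 (7724 and 8088), KRT8 (6127 and 4128), SPINT2 (3671 and 3984) and EPCAM (2050 and 2128). VIM, vimentin, had 10288 and 14272 and CDH2, N-cadherin, 4094 and 3238, in a mesenchymal list with 10 of 13 measured. CDH1, E-cadherin, stood at 598.6 and 823.3. Of its repressors, SNAI1 and ZEB1 were detected on neither array. Their relatives SNAI2 (387.5 and 308.6) and ZEB2 (155.3 and 180.4, near the edge of detection) were measured on both. The bulk signal does not say whether the same cells held the epithelial and the mesenchymal genes. Matrix genes led by HAPLN1 (3628 and 5100), LAMC1 (3671 and 3126), FBN2 (3512 and 2278) and VCAN (2254 and 2019) were measured in 26 of 32 cases. HAPLN1 and VCAN belong to the hyaluronan matrix of the early heart, and HAS2, which makes hyaluronan, had 1254 and 2066.

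Signalling genes are given in the order of ligands, receptors and targets. In the Wnt list 14 of 28 ligand and receptor genes were measured. Of the ligands WNT5A (591.5 and 478.0), WNT3 (267.9 and 230.0) and WNT5B (160.6 and 190.5) were measured, and WNT3A, WNT8A and WNT11 were detected on neither array. Among the Frizzled receptors FZD4 had 1818 and 2369 and FZD2 1172 and 1092. The secreted antagonists SFRP1 (2211 and 1727) and FRZB (903.6 and 593.5) were measured, as was AXIN2, a feedback target (523.6 and 562.4). TMEM88, a membrane protein that binds Dishevelled and dampens Wnt signalling, had 2293 and 2987, within the brightest 8.65% and 5.99% of genes.

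In the BMP and TGF-beta list 24 of 32 genes were measured. Of the ligands BMP2 had 727.2 and 482.5 and BMP4 202.4 and 262.4, and the antagonist NOG was undetected on both arrays. The direct BMP targets ID3 (4011 and 2663), ID1 (3669 and 2904) and ID2 (1590 and 1694) exceeded 1000 on both, as did the pseudoreceptor BAMBI (6046 and 8162) and the inhibitory SMAD6 (2264 and 1418). FGF ligands were close to the edge of detection, FGF2 at 169.8 and 203.9 and FGF10 at 150.7 and 175.5. The receptor FGFR3 had 2241 and 2401. The ERK feedback genes DUSP6 (991.1 and 915.9), SPRED1 (914.2 and 1215) and SPRY2 (774.9 and 1533) were measured on both arrays.

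Notch signalling genes were measured in 14 of 22 cases, with the ligand JAG1 at 1076 and 628.6, NOTCH1 at 661.6 and 525.1 and the target genes HES4 (2509 and 1386) and HEY1 (1294 and 2023). In the retinoic acid list 10 of 17 genes were measured. CRABP2, which carries retinoic acid to its receptors, had 7024 and 6722 and RXRA, the shared nuclear receptor partner, 1118 and 550.3. Among cofactors of HOX proteins MEIS1 had 1957 and 1744, MEIS2 had 2077 and 2399 and PBX3 had 4602 and 3709. Of the HOX genes themselves HOXB2 (1011 and 1690) and HOXB5 (248.8 and 214.7) were measured on both arrays. Hedgehog genes were sparse: 3 of 11 were measured, and SHH, PTCH1 and GLI1 were detected on neither array. Lists of neural ectoderm (4 of 15), endothelium (5 of 20), blood (5 of 17) and primitive streak (6 of 18) lay below the 46.0% of all genes.

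Where the 2 controls disagree was examined next. Signals were background-corrected and quantile-normalized together, and a difference is control 1 minus control 2 on the normalized log2 scale. It exceeds the log2 ratio of the printed signals for dim genes, because background is taken off first. With 1 array on each side there is no test, and a size of at least 2-fold was used to describe genes as apart. Over the 9221 genes the arrays ranked signals alike, with Spearman's rho of 0.943 across genes, which are not independent and share the 2 libraries. The differences had a median of 0.02 and an SD of 0.54.

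By that measure 550 genes, or 5.96%, lay at least 2-fold apart, 269 (2.92%) higher in control 1 and 281 (3.05%) lower in control 1. The number depends strongly on background correction. Without it 146 genes were 2-fold apart, 45 higher and 101 lower, and in the deposited log2 matrix 145 were, 47 higher and 98 lower. All of these were among the 550. The share of higher genes thus stood at 48.9% as reported, at 30.8% without background correction and at 32.4% in the deposited matrix. Under the reported setting and all 9 alternatives of the array difference together, 130 genes were 2-fold apart, 41 higher and 89 lower in control 1.

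**Figure D2:**
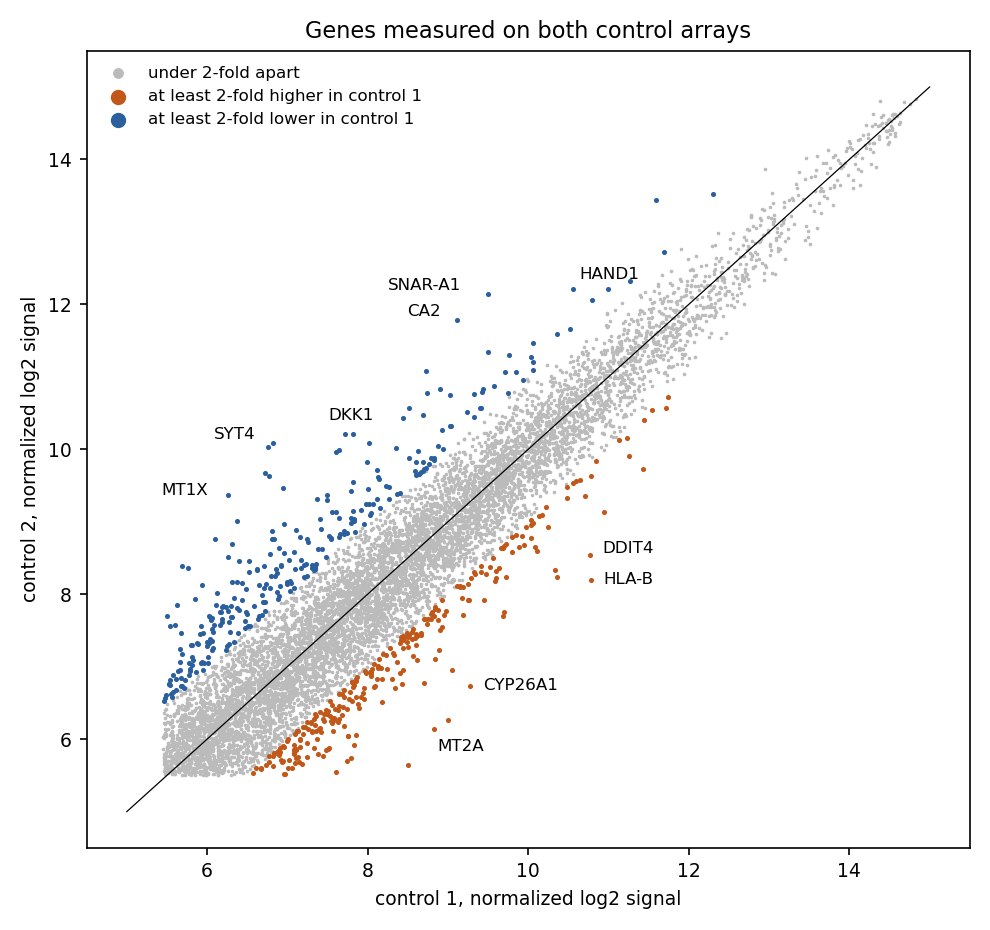
Normalized log2 signal of the 9221 measured genes on control 1 (horizontal) and control 2 (vertical), 1 point a gene, with the line of equal signal. The 269 genes at least 2-fold higher in control 1 lie below the band and the 281 lower in control 1 above it, and the band narrows at the bright end.

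**Figure D3:**
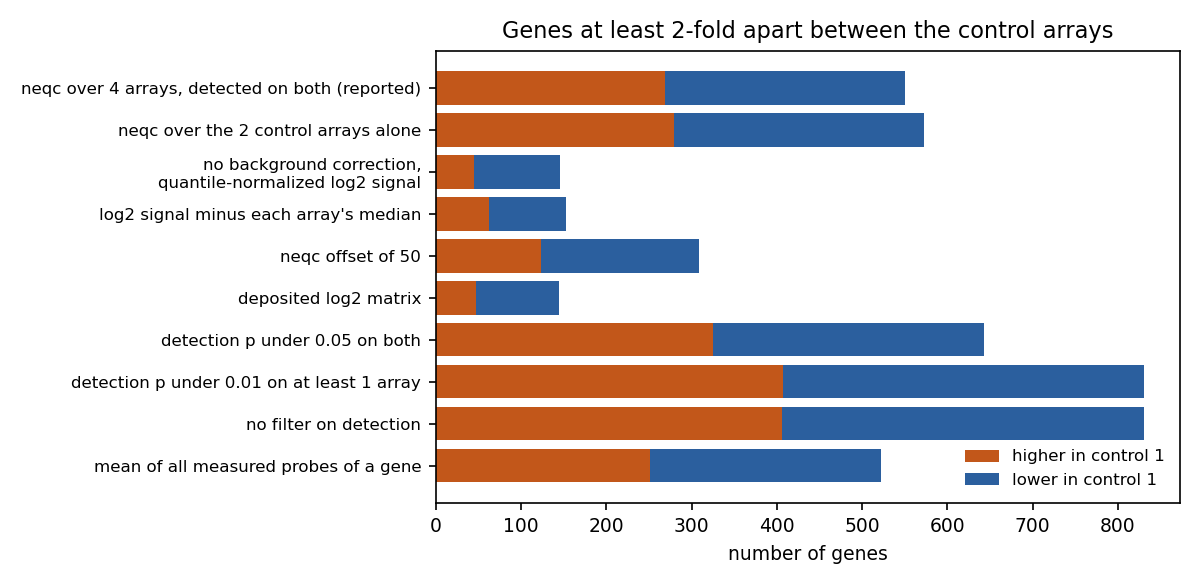
Number of genes at least 2-fold apart under the reported setting and 9 alternatives, split into those higher and those lower in control 1. The count is 550 as reported, between 145 and 153 for the deposited matrix and the settings with no background correction, and 831 where detection on 1 array is enough or not required.

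Disagreement was uneven over the range of brightness. Genes were put in 5 bins of equal size by their mean signal. From the dimmest bin to the brightest, the share at least 2-fold apart was 3.79%, 9.44%, 7.97%, 5.69% and 2.93%. The SD of the differences was 0.61 in the bin after the dimmest and 0.44 in the brightest. Where a gene at least 2-fold apart had another measured probe, that probe differed in the same direction for 84 of 94 genes (89.4%) and by 2-fold too for 41 (43.6%). For genes under 2-fold apart these shares were 70.1% and 2.49% of 1924. Median differences of the autosomes ran between -0.08 for chromosome 19 and 0.10 for chromosome 15.

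The genes highest in control 1 relative to control 2 were of mixed kinds. FOXI2, a forkhead factor, had signals of 481.7 and 156.4, a log2 difference of 2.85. LRRC20 followed with 643.5 and 181.1 (2.75). HLA-B, a class I antigen-presenting molecule, had 1929 and 396.3 (2.59), and kept a difference of 2.22 without background correction. CYP26A1, the enzyme that breaks down retinoic acid, had 754.2 and 210.4 (2.54) by 1 probe. Its 3 other probes gave at most 143.8 and 140.7, under the lowest detected signals of 149.6 and 151.4. DDIT4, an inhibitor of mTORC1 that stress induces, had 1910 and 477.3 (2.23). Further down were the imprinted gene NNAT (1471 and 404.4), the protease MMP11 (659.6 and 227.2), the homeobox factor NKX3-2 (328.4 and 158.3) and HMMR, a mitotic spindle protein (975.1 and 318.7), whose other probe differed by 1.67. The other probe of NNAT gave 229.9 and 127.2 and those of LRRC20 at most 184.2 and 130.3, undetected on control 2. The other genes of the 15 were MT2A, BCHE, UCP2, CCKBR, TMEM158 and H2BC9.

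The genes lowest in control 1 relative to control 2 had larger differences. SYT4, a synaptotagmin of secretory vesicles, had 221.3 and 1206, a log2 difference of -3.27. NRP1, a coreceptor of VEGF and semaphorins, had 217.5 and 1164 (-3.26), while its other probe differed by -1.08, so the probes agree in direction and not in size. DIO2, which activates thyroid hormone, had 214.1 and 927.5 (-2.96) by 1 probe, while its other probe gave 129.0 and 126.9, undetected on both arrays. The carbonic anhydrase CA4 had 218.3 and 897.5 (-2.85). CA2, of the same family, had 683.8 and 3623 (-2.67), with -2.16 by its other probe. Other members of that family are not given here. SNAR-A1, a small noncoding RNA, had 856.4 and 4586 (-2.64). DKK1, a secreted Wnt antagonist and Wnt target, had 326.4 and 1311 (-2.48), with a second probe detected on neither array. BST2, the antiviral protein tetherin, had 342.8 and 1314 (-2.39). The other genes of the 15 were MT1X, BHLHE40, LYSMD2, NTS, GADD45G, RASGRP3 and MCOLN3. Of the 30 genes in both directions, 29 stayed 2-fold apart without background correction and all 30 kept their sign under each of the 9 alternatives. Every alternative reuses the 2 arrays on which these genes were ranked, so this is no independent support for them.

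Metallothioneins, small proteins that bind zinc and copper, stood on both sides of this ranking and were picked out after their values were seen. MT2A had signals of 577.3 and 176.1 (log2 difference 2.68) and MT1X had 183.9 and 769.8 (-3.11). Thus MT2A was at the edge of detection on control 2 and MT1X near it on control 1. Of 11 metallothionein genes with a probe on chromosome 16, 5 were measured. MT1G had 324.7 and 177.2 (1.54), in the direction of MT2A, while MT1E (351.2 and 297.1) and MT1F (322.2 and 288.5) differed by 0.28 and 0.16. MT1H was detected on control 1 alone (324.0 and 143.8), as was MT1M (154.8 and 118.8). Members of this family are close copies of each other, and how far a probe reads a neighbouring member was not tested. Zinc induces these genes through the factor MTF1, which binds metal response elements in their promoters. The 250 bases before the start of MT2A and MT1X are shown because the genes share this input and differ in opposite directions. They are RefSeq sequence of GRCh38.p14, 5′ to 3′, from chr16:56608334-56608583 and chr16:56682220-56682469, both on the plus strand. Capitals mark the core TGCACNC or TGCGCNC on either strand.
MT2A: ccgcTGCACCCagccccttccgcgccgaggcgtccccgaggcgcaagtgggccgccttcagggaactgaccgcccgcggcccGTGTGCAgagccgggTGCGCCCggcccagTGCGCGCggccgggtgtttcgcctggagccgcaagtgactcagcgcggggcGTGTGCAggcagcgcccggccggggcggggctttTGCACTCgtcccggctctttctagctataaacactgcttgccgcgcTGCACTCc
MT1X: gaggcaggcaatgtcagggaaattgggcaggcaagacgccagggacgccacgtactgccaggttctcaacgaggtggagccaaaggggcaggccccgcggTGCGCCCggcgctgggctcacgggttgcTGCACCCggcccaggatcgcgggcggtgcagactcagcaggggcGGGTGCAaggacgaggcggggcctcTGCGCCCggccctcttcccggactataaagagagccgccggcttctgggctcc
The core was found 7 times before MT2A and 4 times before MT1X. Of 35116 promoters of that length 24.8% hold it at least once, and a match is not a proven site.

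**Figure D4:**
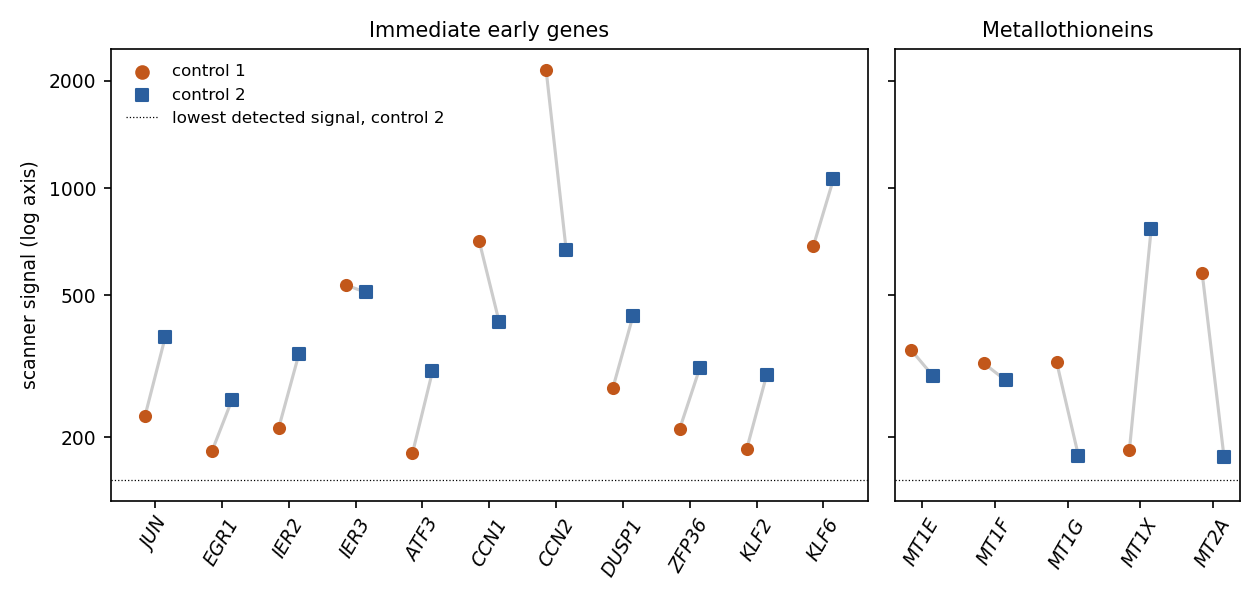
Scanner signal (log axis) of the 11 measured immediate early genes and the 5 measured metallothioneins on control 1 (circles) and control 2 (squares), with the dotted line at 151.4, the lowest detected signal on control 2. JUN, EGR1, IER2, ATF3, DUSP1, ZFP36, KLF2 and KLF6 are lower in control 1, CCN1 and CCN2 higher, and MT1X and MT2A cross over.

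Immediate early genes, which cells switch on within minutes of serum or growth factor, had the lowest list median as reported. The trophoblast and amnion list was lower where detection on 1 array was enough (-1.37 beside -1.04). Of 15 genes with a probe 11 were measured, and their median difference was -1.04, beside 0.02 over all genes. At least 2-fold, 7 were lower and 1 was higher in control 1, beside 3.05% lower and 2.92% higher of all genes. In the bins with mean signals of 206 to 299 and of 300 to 499, 9.44% and 7.97% lay 2-fold apart in either direction. ATF3, a stress-induced leucine zipper factor, had 180.0 and 305.8 (-1.48). KLF2, a zinc finger factor, had 184.6 and 298.7 (-1.34), and JUN, part of the AP-1 factor, 229.7 and 380.7 (-1.21). IER2 (212.5 and 341.1), DUSP1, a phosphatase of MAP kinases (275.0 and 437.6), ZFP36, which destabilises AU-rich messages (211.2 and 312.6), and EGR1 (182.5 and 254.4) completed the 7. All 7 have signals under 450 on both arrays. Without background correction none of them reached 2-fold, with background correction and an offset of 50 rather than 16 there were 3 that did, and the list's median lay between -1.05 and -0.61 over the alternatives. FOSB was detected on control 2 alone, and FOS and JUNB on neither array. The exception was CCN2, a matricellular target of YAP, with 2147 and 671.4 (1.80), and CCN1 lay the same way (708.6 and 419.6). CCN2 stayed 2-fold apart under each alternative setting named here.

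Serum response factor drives genes of this kind through the CArG box, and CREB through the cAMP response element TGACGTCA. Promoters of 2 members that held such a motif are shown as examples of these inputs, again 250 bases from RefSeq (GRCh38.p14), from chr5:138465229-138465478 on the plus strand for EGR1 and chr5:172771196-172771445 on the minus strand for DUSP1. Capitals mark the CArG boxes of EGR1 and the cAMP response element of DUSP1, searched on both strands.
EGR1: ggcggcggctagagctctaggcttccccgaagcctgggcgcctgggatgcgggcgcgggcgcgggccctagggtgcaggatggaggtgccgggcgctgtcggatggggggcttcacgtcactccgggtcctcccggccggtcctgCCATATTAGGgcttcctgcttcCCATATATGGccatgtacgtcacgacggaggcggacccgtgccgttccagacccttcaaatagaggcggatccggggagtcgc
DUSP1: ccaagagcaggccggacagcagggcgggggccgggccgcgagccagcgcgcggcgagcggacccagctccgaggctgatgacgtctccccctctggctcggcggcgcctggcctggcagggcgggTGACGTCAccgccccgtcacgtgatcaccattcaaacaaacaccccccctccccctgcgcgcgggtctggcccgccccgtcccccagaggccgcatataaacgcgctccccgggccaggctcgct
Of the 9 measured members with a promoter sequence from RefSeq, 1 held a CArG box and 1 the cAMP response element. Among all 35116 promoters 1.16% and 1.65% did. Neither count says whether a factor bound there.

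Among lineage lists the largest departures from the median of 0.02 were in small ones. Neural ectoderm had a median of 1.00 over 4 measured genes, with SOX3 (434.7 and 217.2) and ZIC2 (445.7 and 208.1) 2-fold higher in control 1 and NES level (805.1 and 856.8). Without background correction SOX3 was under 2-fold (0.93). OTX1 and OTX2 passed detection on control 1 alone. Trophoblast and amnion genes lay mostly in the other direction, with a median of -0.93 over 6 genes and of -1.37 to -0.45 over the alternatives. Of the 6, 5 were lower in control 1 and PGF was higher (311.4 and 221.3, 0.74). TFAP2C, a factor of amnion, trophoblast and germ cells, differed by -1.92, and by -1.96 by its other probe. IGFBP3 (223.7 and 410.2, -1.41) and HAND1 (-1.65) were the other genes 2-fold apart, of which IGFBP3 was not without background correction (-0.89). TFAP2A, CGA (114.3 and 160.6), GABRP and GCM1 (137.2 and 157.0) were detected on control 2 alone, CGA and GCM1 near the edge of detection. No member of the list was detected on control 1 alone. Over all 20046 named genes, 591 were detected on control 2 alone and 714 on control 1 alone. ISL1 and HAND1 stand in this list and in the cardiac one.

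Members of other lists that were lower in control 1 included 7 picked out after their values were seen. MSX1, a BMP target, had 648.9 and 1856 (-1.72), TWIST1 1046 and 1590 (-0.69) and LEF1, the nuclear effector of Wnt signals, 820.6 and 1937 (-1.39). ALDH1A2, which makes retinoic acid, had 605.6 and 1938 (-1.92, and -1.60 by its other probe). CYP26A1, which degrades retinoic acid, differed by 2.54, by 1 of its 4 probes. TCF21, a factor of epicardium, had 178.6 and 319.3 (-1.60), with -0.81 by its other probe and -0.86 without background correction. TGFBI, a matrix protein induced by TGF-beta, had 536.9 and 1562 (-1.79), and BMP5 220.9 and 536.8 (-1.95).

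Other members were higher in control 1. GATA4 (1.24), MESP1 (1.12) and NKX2-5 (1.07) were the 3 cardiac regulators at least 2-fold higher, all of them dim, and none of the 3 reached 2-fold without background correction, while HAND1 stayed apart. In the lists together 57 genes were 2-fold apart as reported, and 26 of them stayed so without background correction. Over all 9221 measured genes these numbers were 550 (5.96%) and 146 (1.58%). The lists were chosen with earlier results known, so their count is no finding about them. COL2A1, the cartilage collagen, had 2901 and 962.9 (1.69), PDGFRB 1254 and 489.8 (1.51), BMP7 509.5 and 260.4 (1.30) and KIT 272.8 and 164.9 (1.45). FOXA2, a member of the primitive streak list, differed by 1.23, with 1 of its 3 probes detected on both arrays. FOXA1 (473.6 and 273.8) differed by 1.05, though its own list, endoderm and liver, had a median of -0.23. FGF8, a streak and cardiac ligand, had 222.2 and 156.0 (1.19). Of these, BMP7 (0.90), KIT (0.69), FOXA1 (0.73) and FGF8 (0.49) were under 2-fold without background correction. Stem cell genes split: POU5F1 (-2.07), LEFTY2 (188.4 and 348.2, -1.60) and L1TD1 (338.0 and 636.9, -1.25) were lower in control 1, while LIN28A (0.01), DPPA4 (0.03) and SALL4 (942.2 and 765.5) were level or nearly so. LEFTY2 (-0.91) and L1TD1 (-0.95) fell short of 2-fold without background correction. NODAL was detected on control 2 alone (113.5 and 279.2).

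Cell cycle genes leaned one way by small amounts. Their median difference was 0.44, with 23 of 29 above 0. Over all measured genes the median was 0.02 and the upper quartile 0.35. TOP2A (1.14) and BUB1, a kinase of the spindle checkpoint (566.4 and 313.9, 1.07), were at least 2-fold higher in control 1, beside 2.92% of all genes. CDK1 had 1722 and 1019 (0.79) and CCNA2, cyclin A2, 1600 and 926.9 (0.81). Without background correction BUB1 was under 2-fold (0.79). CDKN1A, the p21 inhibitor of cell division, was 2-fold lower in control 1 (813.3 and 1661, -1.15). The median of the list stayed between 0.39 and 0.45 over the alternatives. In the interferon list BST2 and IFITM1 (1013 and 2632, -1.54) were 2-fold lower, and ISG15 (399.4 and 434.0), IFITM2 (6760 and 7658) and IFITM3 (5837 and 6338) differed by less than 0.25. The stress list held both directions, with DDIT4 (2.23) and SDF2L1 (1822 and 762.6, 1.34) higher and TRIB3 (220.1 and 408.7, -1.45) and ASNS (1219 and 2497, -1.15) lower in control 1. TRIB3 was under 2-fold without background correction (-0.91). TRIB3 and ASNS are targets of ATF4, and SDF2L1 is a chaperone gene of the endoplasmic reticulum.

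Ribosomal, respiratory, housekeeping, Notch and chromatin genes had no member at least 2-fold apart, beside 5.96% of all genes and 2.93% of the brightest bin. Lists of their size can hold none at such shares. The smooth muscle, paraxial mesoderm, endothelial, blood, Hedgehog and HOX, MEIS and PBX lists also held none, so this is not particular to the genes named first. The ribosomal proteins lay between -0.49 and 0.32 with a median of 0.02, and the respiratory chain genes between -0.46 and 0.85 with a median of 0.11. Among housekeeping genes GUSB (-0.03) and TBP (0.07) differed least and IPO8 (0.77) and PGK1 (-0.74) most, leaving out EEF1A1, whose value is set equal by quantile normalization because it ranks first on both arrays. Wnt ligands and receptors also had no member apart, although LRP5, a Wnt coreceptor, reached 0.96 (499.0 and 297.1). TMEM88 differed by -0.45, beside an SD of 0.54 over all genes and of 0.44 in the brightest bin, to which it belongs.

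**Figure D5:**
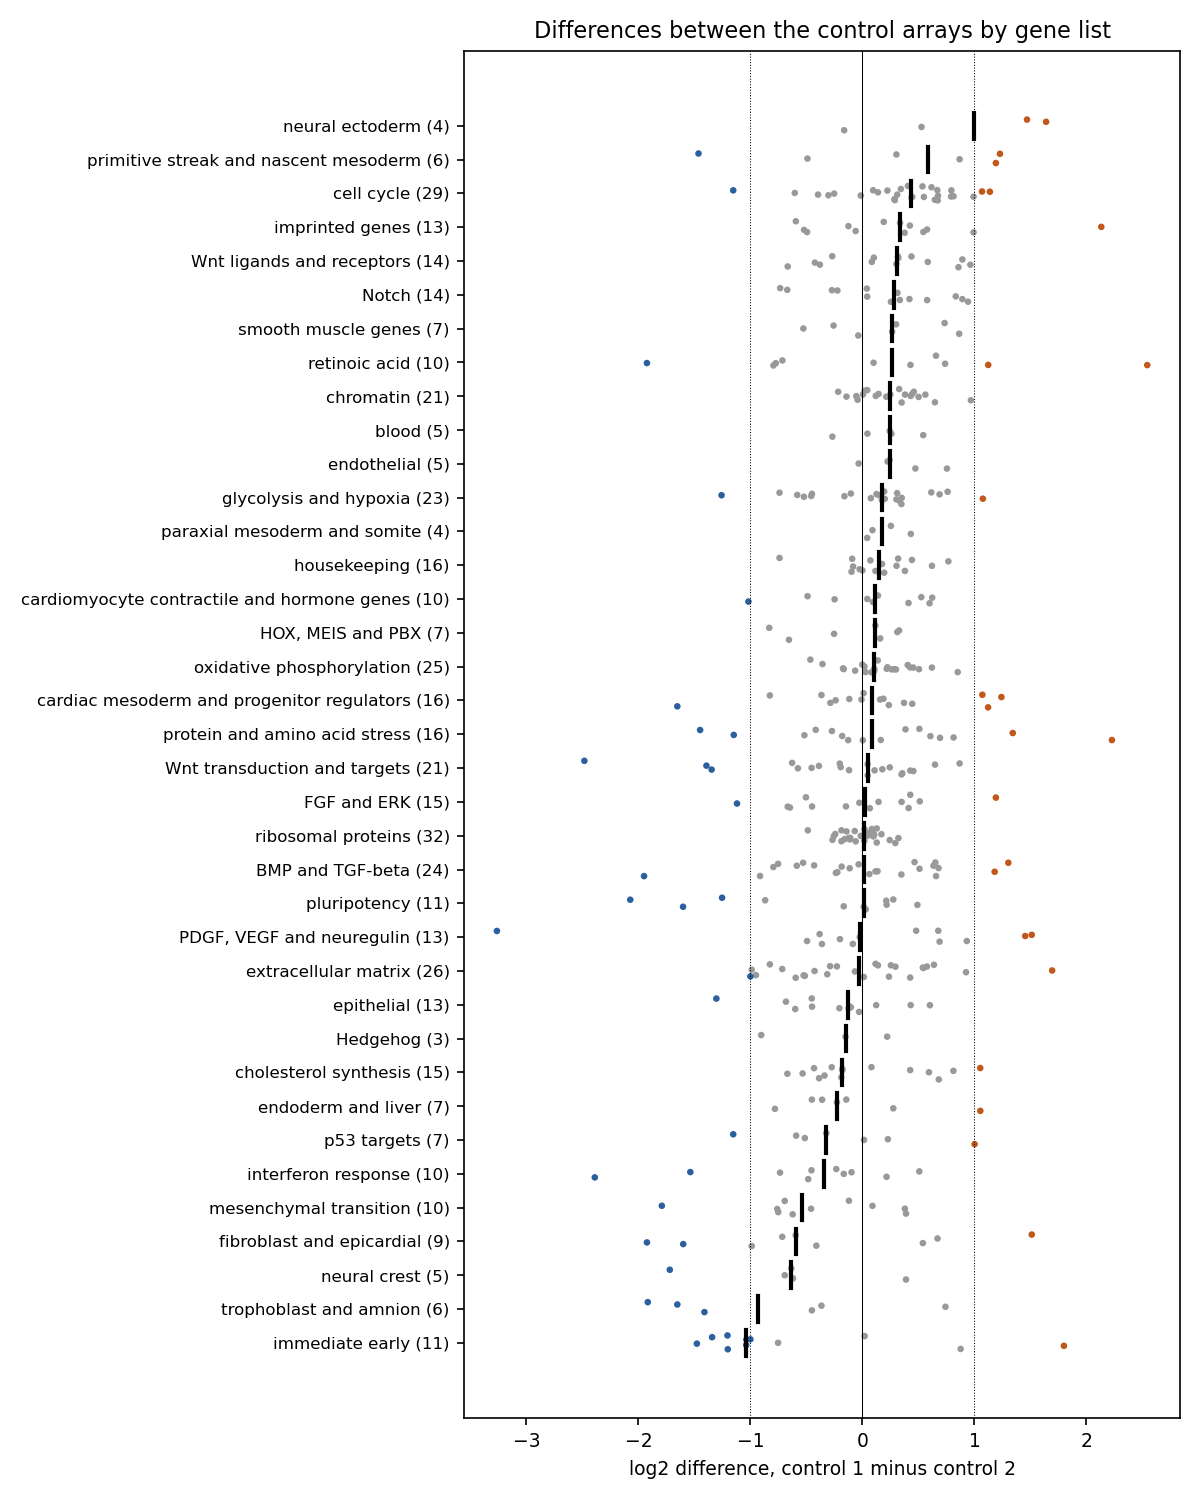
Log2 difference, control 1 minus control 2, of each measured gene in the 37 lists, 1 point a gene, with the median of a list as a bar and the number measured in parentheses. Neural ectoderm stands at the top with 1.00 and immediate early genes at the bottom with -1.04, while ribosomal proteins cluster around 0.02, and dotted lines mark 2-fold.

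Detection on a single array gave a further kind of disagreement. Genes detected on control 1 alone numbered 714 and on control 2 alone 591. Most had a p between 0.01 and 0.05 on the other array: 256 and 269 of them had no probe under 0.05 there. For these a bound was set on the background-corrected, normalized scale, from the lowest value among detected probes of the other array. It holds on that scale alone, and the printed signals, which still contain background, differ by less. On control 1 alone OLFML1, an olfactomedin family gene (295.9 and 137.2), was at least 4.02-fold higher, MXD3, a MAX partner of the MYC network (250.4 and 139.2), at least 3.09-fold, and the fetal globin HBG2 (207.6 and 137.4) at least 2.18-fold. LRRC45 and PODXL2 followed with at least 2.18-fold and 2.13-fold. On control 2 alone TFAP2A (140.1 and 377.7) was at least 6.25-fold lower in control 1, HSPB8, a small heat shock protein (128.2 and 342.6), at least 5.48-fold and INKA1 at least 4.30-fold. KDR and NODAL were at least 4.15-fold and 4.03-fold lower in control 1.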

How the data were processed

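Total RNA of RUES2 cells was hybridised as biotin-labelled cRNA to single-colour Illumina bead arrays, per the labels. The deposited scanner table holds a linear, non-normalized signal intensity and a detection p-value for each probe, per the file headers. The deposited series matrix holds log2 values, and no source here states how they were normalized. On both controls its values differed by at most 0.158 from quantile-normalized log2 signal, around a median of 7.02. The submitters' processing notes list lumi and limma 3.12.3 without saying what each did. No slide or batch is named, and there were 0 unused columns of sample values.

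Intensities of all 4 arrays were corrected and normalized together with neqc of limma 3.58.1 (R 4.3.3, offset 16), with negative controls inferred from the detection p-values. Only the 2 control shRNA arrays, grouped by their labels, were then used. Medians of the raw signal were 130.9 and 132.2. Of 47322 probes, the platform annotation gave 30113 with 1 gene symbol, 8 with several and 17201 with none, and 30074 were matched by gene identifier to RefSeq's gene table (GRCh38.p14). A gene is represented by the brightest probe with a detection p under 0.01 on both controls. Differences are described by size (2-fold) with no test, since each side is 1 array. The normalization was run on simulated arrays with known differences. Both carried the detection p-values of control 2, so that run does not test the detection filter.

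The members and the 37 lists, with 741 genes, were chosen with earlier results of these data known. Named genes are TMEM88, the 20 brightest, the 15 largest differences in each direction, the 5 brightest on 1 array with a p of 0.05 or more on the other, and list members, leaving out LOC and open reading frame names from the rankings. Genes given outside this rule are said to be so chosen. Promoters were read from RefSeq tables. Alternatives covered background correction, normalization, detection, the probe of a gene, the fold and leaving out an array. Tables were handled in Python 3.11.15 with pandas 2.3.3 and numpy 2.4.6, and figures drawn with matplotlib 3.10.9.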

Additional observations from a re-analysis of the deposited data

Results flagged for a closer look

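Probes without a gene symbol in the platform annotation were left out of every list and comparison above. Of them 2521 were detected on both control arrays, and the brightest had a mean signal of 26790. On the normalized scale 102 of the 2521, or 4.05%, lay at least 2-fold apart, beside 5.96% of named genes. What these probes read was not tested.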

How the results depend on the processing

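The number of genes at least 2-fold apart, 550 as reported, was 146 without background correction, 153 with log2 signal minus each array's median, 309 with an offset of 50 and 145 in the deposited matrix. It was 831 with detection required on 1 array and again 831 with no filter on detection. With other fold limits it was 2123 at 1.5-fold and 106 at 3-fold, which by construction count more and fewer genes. It stayed within 1.5 times of the reported count with neqc on the 2 controls alone, with detection at 0.05 and with the mean of a gene's probes. The SD of the differences and the number of genes measured also stayed within 1.5 times of their reported values, and without replicate 1 or replicate 2 between 9821 and 9944 genes were measured. The median of the primitive streak list, 0.59 over 6 genes, was -0.094 with detection on 1 array and -0.043 with no filter, and that of the fibroblast and epicardial list, -0.60, was 0.13 with no filter, since undetected genes enter there. The neural ectoderm median became 0.036 with no filter. For the 7 lists with a median of at least 0.5 in size, 60 of 63 recomputed medians kept their sign and 20 moved by over 1.5 times. Of 918 differences of single genes recomputed, 112 moved by more than the SD of the differences between genes. No paired analysis was possible because both arrays belong to the same group and no groups were compared. Signals near the edge of detection limit what the arrays can show, and a gene called undetected may still be expressed.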

Other observations

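Imprinted genes were measured in 13 of 20 cases. H19, a noncoding RNA of the IGF2 locus, had signals of 3124 on control 1 and 2486 on control 2, while IGF2 itself stood near the edge of detection (179.1 and 205.1). SNRPN (3753 and 3890), NDN (2288 and 1755) and DLK1 (1109 and 749.9) were measured, and MEG3 and PEG3 were detected on neither array. NNAT was the member of this list that lay 2-fold apart, and the list's median difference was 0.34. Among 21 measured chromatin genes of 24, DNMT1, the maintenance DNA methyltransferase, had 5021 and 3779, HDAC1 4876 and 5038 and SMARCA4, the BRG1 remodeller, 3636 and 2382. DNMT3B, a methyltransferase of early embryos, had 789.0 and 672.5.

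Paraxial mesoderm genes were measured in 4 of 12 cases, with DLL3 at 580.8 and 547.4 and LFNG at 416.3 and 351.4, and MEOX1, TCF15 and PAX3 were detected on neither array. Of the neural crest list 5 of 12 genes were measured, with a median difference of -0.64, and SOX10, FOXD3 and PAX7 were undetected. In the p53 list 7 of 11 were measured, with BAX (1601 and 825.6) 2-fold higher and CDKN1A 2-fold lower in control 1, though BAX fell short without background correction (0.90). In the cholesterol list HMGCS1 had 3791 and 4257 and SC5D 2283 and 3171, the median difference was -0.18, and MVD (273.5 and 182.3) was the member 2-fold higher in control 1, which was also lost without background correction (0.54). PHGDH, the entry enzyme of serine synthesis, had 9791 and 11298, and ATF4, a stress-responsive factor, 5068 and 7299.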
